A study of Arabidopsis thaliana with 12 samples.

Results

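Leaf senescence is the ordered dismantling of an ageing leaf, during which chlorophyll is broken down and nutrients are exported. Chlorophyll b is first converted towards chlorophyll a, magnesium is removed from chlorophyll a, the phytol tail is cut off, and the ring is then opened to give a colourless product. NAC transcription factors switch on many of these steps, and proteases and sugar transporters are induced as the leaf empties.

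The 10 genes described here cover those steps and were taken from a fixed list of loci, 10 of the 32833 in the count table. NYC1 encodes a chlorophyll b reductase. NYE1 and NYE2, also called SGR1 and SGR2, encode magnesium dechelatases. PPH encodes pheophytinase, which removes phytol, and PAO encodes pheophorbide a oxygenase, which opens the ring. ORE1 and NAP are NAC transcription factors that promote senescence. SAG12 encodes a cysteine protease, SAG13 a protein of the short-chain dehydrogenase/reductase family, and SAG29 the sugar transporter SWEET15.

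Messenger RNA was sequenced from pooled aerial tissue of Arabidopsis thaliana Col-0 stable transgenic lines, which were grown in soil at 22 °C with 16 h of light per day and harvested 15 days after germination. The Control line carried GFP and BAR. The Mlp37347 line carried Mlp37347-GFP and BAR, and the Mlp124499 line carried Mlp124499-GFP and BAR, each a candidate secreted effector of the rust fungus Melampsora larici-populina fused to GFP. BAR, carried by all 3 groups, is a gene for herbicide resistance. Each of the 3 groups had 4 libraries. The sources used here name neither the promoter of the fusions nor the number of independent lines. They do not say that the 4 libraries came from separately grown plants, so a p-value covers only the scatter of these samples, which may be technical in part.

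The stretches of 250 bases upstream of NAP, ORE1 and NYC1 are shown because, of the genes with enough counts to be tested, these 3 varied most among the libraries of the Mlp37347 line. They are RefSeq sequences of build TAIR10.1, written 5′ to 3′ on the strand of the gene and ending at the base before its annotated start. Capitals mark matches on either strand to 6 motifs, which were the G-box CACGTG, its core ACGTG, the W-box core TTGAC, the evening element AAATATCT, the CRT core CCGAC and CATGTG. The core ACGTG overlaps the G-box. The stretches lie at chr1:26121830-26122079 on the plus strand (NAP), chr5:15859912-15860161 on the minus strand (ORE1) and chr4:7687007-7687256 on the minus strand (NYC1).
NAP: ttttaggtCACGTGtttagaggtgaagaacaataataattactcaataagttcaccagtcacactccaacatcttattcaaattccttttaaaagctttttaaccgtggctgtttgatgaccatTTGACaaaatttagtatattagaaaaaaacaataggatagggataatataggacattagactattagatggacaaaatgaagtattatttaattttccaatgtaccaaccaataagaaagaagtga
ORE1: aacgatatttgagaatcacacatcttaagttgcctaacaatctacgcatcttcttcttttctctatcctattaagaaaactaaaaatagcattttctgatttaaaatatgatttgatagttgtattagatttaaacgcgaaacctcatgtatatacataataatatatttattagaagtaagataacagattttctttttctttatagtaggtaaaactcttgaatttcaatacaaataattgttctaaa
NYC1: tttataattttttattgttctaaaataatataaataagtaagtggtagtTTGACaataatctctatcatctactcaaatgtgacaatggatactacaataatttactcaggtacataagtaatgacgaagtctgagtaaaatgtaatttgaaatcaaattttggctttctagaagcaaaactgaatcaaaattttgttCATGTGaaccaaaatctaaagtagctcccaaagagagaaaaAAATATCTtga

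The stretch before NAP holds a G-box that begins 242 bp before the start and a W-box core that begins 126 bp before it. The stretch before NYC1 holds a W-box core at 201 bp, CATGTG at 52 bp and an evening element at 11 bp. None of the 6 motifs is in the window before ORE1. Of 27431 such windows in the genome, 6.49% hold the G-box, 22.91% ACGTG, 44.93% the W-box core, 4.79% the evening element, 11.97% the CRT core and 11.09% CATGTG. A match describes letters in a window and no more.

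In TAIR10.1 the NAP locus AT1G69490 lies at chr1:26122080-26123514, the ORE1 locus AT5G39610 at chr5:15858398-15859911 and the NYC1 locus AT4G13250 at chr4:7684156-7687006. NYE1 (AT4G22920) lies at chr4:12016420-12018643 and SAG13 (AT2G29350) at chr2:12600914-12602556. PAO (AT3G44880) overlaps AT3G44870 on the same strand, so its count is uncertain in the shared stretch. No window of 100 bases from the exons of any of the 10 genes occurs a second time in the genome.

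The Control libraries held 6645703 to 37378917 counts each, those of Mlp37347 12368262 to 24483245, and those of Mlp124499 10813288 to 14733894. By chi-square per degree of freedom over genes, Mlp37347 1, 2 and 3 lay close together (2.82 to 6.27) and far from Mlp37347 4 (154 to 208). These 3 libraries also had a mate inner distance of 110 to 115 bp, against 50 to 84 bp in the other 9. Mlp124499 1 and 2 were likewise close, at 6.94, and Mlp124499 4 was far from the rest of its line, at 85.0 to 132. In Control 1, 57.6% of the surviving reads aligned, against 88.0% to 95.5% elsewhere. All 6 leaf markers were detected in each group, and their summed level was 22570 to 42100 CPM in Control, against 43730 to 48810 in the Mlp37347 line and 31730 to 41610 in the Mlp124499 line. CPM are counts per 1000000 counts of a library after TMM scaling, which allows for differences in composition. Summed root markers ranged over 169 to 267 CPM in Control, against 320 to 453 in the Mlp37347 line and 215 to 425 in the Mlp124499 line, with 1 of 7 genes, MRN1, at 0 counts throughout. The higher sum in Mlp37347 was that of PYK10 (181 ± 50.7 CPM in Control and 374 ± 63.6 in Mlp37347), while the mean levels of SCR (49.3 and 26.7 CPM), NRT2.1 (2.00 and 0.705) and PHT1;1 (1.38 and 0.645) were lower in Mlp37347. CASP1 and WER averaged below 0.4 CPM in both. Flower markers summed to at most 4.12 CPM in any library, and seed and embryo markers to at most 0.398 CPM outside Mlp124499 4, where they reached 12.6. The part of these differences in the results below was not tested, and fewer cells of a type and less RNA per cell cannot be told apart in such tissue.

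In Control the 10 genes covered a wide span of levels, here compared as CPM per kb of exon over 4 libraries. NAP was highest with a mean of 98.7 and a range of 80.2 to 118 CPM per kb. NYC1 followed at 59.0 (50.9 to 70.4) and PAO at 44.2 (33.8 to 52.9), and these 2 ranges touched. PPH at 29.9 (23.8 to 33.6), ORE1 at 22.9 (18.6 to 26.8), SAG13 at 21.4 (10.5 to 32.1) and NYE1 at 18.0 (13.5 to 19.7 CPM per kb) formed a run in which neighbours overlapped. NYE2 stood at only 1.65 (0.922 to 2.64) CPM per kb, apart from NYE1. SAG12 averaged 0.716 (0 to 2.46) and SAG29 0.200 (0.0983 to 0.361) CPM per kb, and SAG12 overlapped both of its neighbours.

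**Figure D1:**
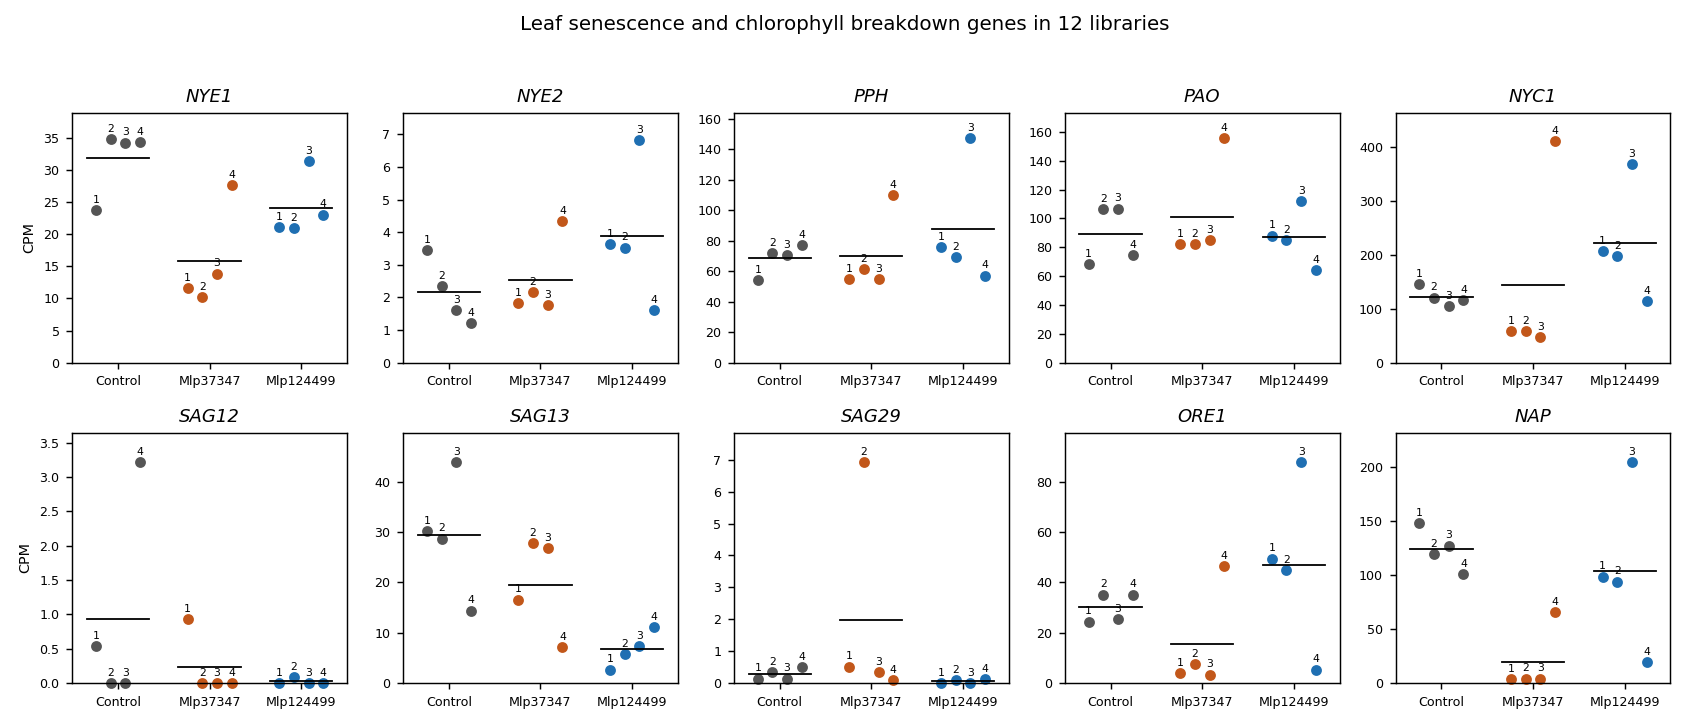
Level of each of the 10 genes in CPM (vertical axes, starting at 0) in the 12 libraries, by line. Points are libraries with their replicate number and bars are group means. For NAP, ORE1 and NYC1 the Mlp37347 library numbered 4 stands far above the other 3, and for ORE1 and NAP the Mlp124499 library numbered 4 stands far below the other 3.

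The factor genes NAP and ORE1 were low in 3 of the 4 Mlp37347 libraries. NAP stood at 148, 119, 127 and 100 CPM in Control 1 to 4. In Mlp37347 1 to 4 it stood at 3.39, 3.87, 3.93 and 65.2 CPM. In Mlp124499 1 to 4 it stood at 98.4, 93.7, 204 and 19.1 CPM. All 4 Mlp37347 libraries lay below every Control library, 3 of them by far, while the Mlp124499 libraries lay on both sides of the Control range. The log2 fold change of NAP in Mlp37347 against Control was -2.71 ± 0.95 (SE, n = 4 against 4) with adjusted p = 0.0956 by edgeR's quasi-likelihood test, which missed the threshold of 0.05. For Mlp124499 it was -0.25 ± 0.89 with adjusted p = 0.947.

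ORE1 had the same outline. It stood at 24.4, 35.2, 25.3 and 35.2 CPM in Control 1 to 4. It stood at 3.81, 7.49, 3.26 and 46.6 CPM in Mlp37347 1 to 4. It stood at 49.4, 44.8, 87.9 and 5.25 CPM in Mlp124499 1 to 4. Library 4 was thus the highest of the Mlp37347 line and the lowest of the Mlp124499 line, and both lines overlapped Control. The log2 fold change was -0.99 ± 0.83 in Mlp37347 (adjusted p = 0.494) and 0.64 ± 0.82 in Mlp124499 (adjusted p = 0.816, edgeR).

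NYC1 acts on chlorophyll b, a pigment of the light-harvesting antenna. It stood at 145, 121, 105 and 117 CPM in Control 1 to 4. It stood at 58.4, 58.4, 47.8 and 411 CPM in Mlp37347 1 to 4, so that 3 libraries lay below all Control libraries and the fourth above them. It stood at 207, 198, 369 and 114 CPM in Mlp124499 1 to 4, where 3 libraries lay above all Control libraries and library 4 within their range. The log2 fold change was 0.24 ± 0.62 in Mlp37347 (adjusted p = 0.850) and 0.86 ± 0.62 in Mlp124499 (adjusted p = 0.594, edgeR).

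Both dechelatase genes were measured, at very different levels. NYE1 stood at 23.8, 34.8, 34.2 and 34.3 CPM in Control 1 to 4. In Mlp37347 1 to 4 it stood at 11.6, 10.2, 13.9 and 27.7 CPM, where library 4 lay above the lowest Control library. In Mlp124499 1 to 4 it stood at 21.0, 21.0, 31.4 and 23.0 CPM, which overlapped Control. NYE1 fell by 1.01 ± 0.29 on the log2 scale in Mlp37347 (adjusted p = 0.0493, edgeR), with 3 of 4 libraries below all Control libraries. This call lay just inside the threshold. It was lost when any of the Control libraries, Mlp37347 1, 2 or 3, or Mlp124499 1, 2 or 4 was left out (NYE1 adjusted p between 0.0532 and 0.162), and over the 21 other settings NYE1 was past the threshold in 6, with adjusted p from 2.98e-08 to 0.769. In Mlp124499 the log2 fold change of NYE1 was -0.40 ± 0.29 (adjusted p = 0.596). NYE2 ranged from 1.21 to 3.45 CPM in Control, from 1.75 to 4.35 in the Mlp37347 line and from 1.62 to 6.81 in the Mlp124499 line. Its log2 fold changes were 0.26 ± 0.47 (adjusted p = 0.775) and 0.90 ± 0.47 (adjusted p = 0.392) in Mlp37347 and Mlp124499.

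PPH and PAO, the next enzymes of the pathway, varied less. PPH stood at 54.4, 71.9, 70.5 and 76.9 CPM in Control 1 to 4, at 54.6, 61.4, 54.8 and 110 CPM in Mlp37347 1 to 4, and at 76.0, 69.4, 147 and 57.1 CPM in Mlp124499 1 to 4. PAO stood at 68.2, 107, 107 and 74.5 CPM in Control 1 to 4, at 82.2, 82.2, 84.7 and 156 CPM in Mlp37347 1 to 4, and at 88.1, 85.0, 112 and 64.3 CPM in Mlp124499 1 to 4. Both genes were highest in library 4 within Mlp37347 and in library 3 within Mlp124499, and neither line was separate from Control. The log2 fold changes of PPH were 0.04 ± 0.31 and 0.35 ± 0.31 in Mlp37347 and Mlp124499 (adjusted p = 0.961 and 0.691, edgeR). Those of PAO were 0.18 ± 0.26 and -0.03 ± 0.26 (adjusted p = 0.707 and 0.978).

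SAG13, used as a marker of senescence and of cell death, was lower in the Mlp124499 line. It stood at 30.3, 28.7, 44.0 and 14.4 CPM in Control 1 to 4. It stood at 16.5, 27.7, 26.8 and 7.10 CPM in Mlp37347 1 to 4. It stood at 2.63, 5.74, 7.28 and 11.1 CPM in Mlp124499 1 to 4, so that every Mlp124499 library lay below every Control library. SAG13 fell by 2.12 ± 0.49 on the log2 scale in Mlp124499 (adjusted p = 0.0290, edgeR). Its log2 fold change in Mlp37347 was -0.58 ± 0.47 (adjusted p = 0.475), and the direct difference of the lines was 1.54 ± 0.48 (adjusted p = 0.114). The Mlp124499 call of SAG13 was lost without Control 1, 2 or 3 or without Mlp124499 1, 2 or 3, with adjusted p of 0.0611 to 0.110, and it held in 14 of the 21 other settings.

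SAG12 and SAG29 did not pass the filter on low counts. SAG12 had 4, 0, 0 and 125 counts in Control 1 to 4, and 22, 0, 0 and 0 in Mlp37347 1 to 4. It had 0, 1, 0 and 0 counts in Mlp124499 1 to 4. Its reads came almost wholly from Control 4 (3.21 CPM), Mlp37347 1 (0.931 CPM) and Control 1 (0.531 CPM). A library at 0 counts allows up to 3 counts, which is 0.155 to 0.272 CPM in the 8 libraries at 0, counting error only. SAG29 had 1, 5, 2 and 19 counts in Control 1 to 4. In Mlp37347 1 to 4 it had 12, 134, 4 and 1 counts. In the libraries of Mlp124499 it had 0, 1, 0 and 2. The 134 counts of Mlp37347 2 were 6.92 CPM, and every other library lay at or below 0.508 CPM. In each gene most counts of a group came from 1 library. With no filter, neither gene passed the threshold in any of the 3 comparisons, with adjusted p of 0.244 to 0.537 for SAG12 and 0.0825 to 0.561 for SAG29 (edgeR). Their fitted fold changes rest on single libraries and are not given.

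In all, 8 of the 10 genes passed the filter on low counts. In Mlp37347 against Control, 1 of the 8 was lower past the threshold (NYE1) and 0 were higher, where 8.61% of the 19090 genes tested were called, 5.42% lower and 3.19% higher. With total count scaling in place of TMM, 9.95% of all genes were called lower and 1.84% higher. In Mlp124499 against Control, 1 of 8 was lower (SAG13) and 0 higher, where 4.27% of all genes were called, 2.71% lower and 1.56% higher. In Mlp37347 against Mlp124499, 0 of 8 were called by edgeR, where 2.69% of all genes were. At an unadjusted p under 0.05 this last comparison held 2 of the 8 (NAP and SAG13), where the share of all genes was not computed. DESeq2 called 1, where it called 7.18% of all genes, and limma voom with sample weights called 7, where it called 54.3%. Groups did not overlap for NAP in Mlp37347 (lower, as for 10.8% of all genes) and for SAG13 in Mlp124499 (lower, as for 6.64%). A count of 1 in 8 is read here as a result on that gene and not on the group. The median log2 fold change of the 8 genes was -0.27 in Mlp37347 and 0.16 in Mlp124499, beside 0.01 and -0.01 over all genes. Both effector comparisons share the Control libraries.

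**Figure D2:**
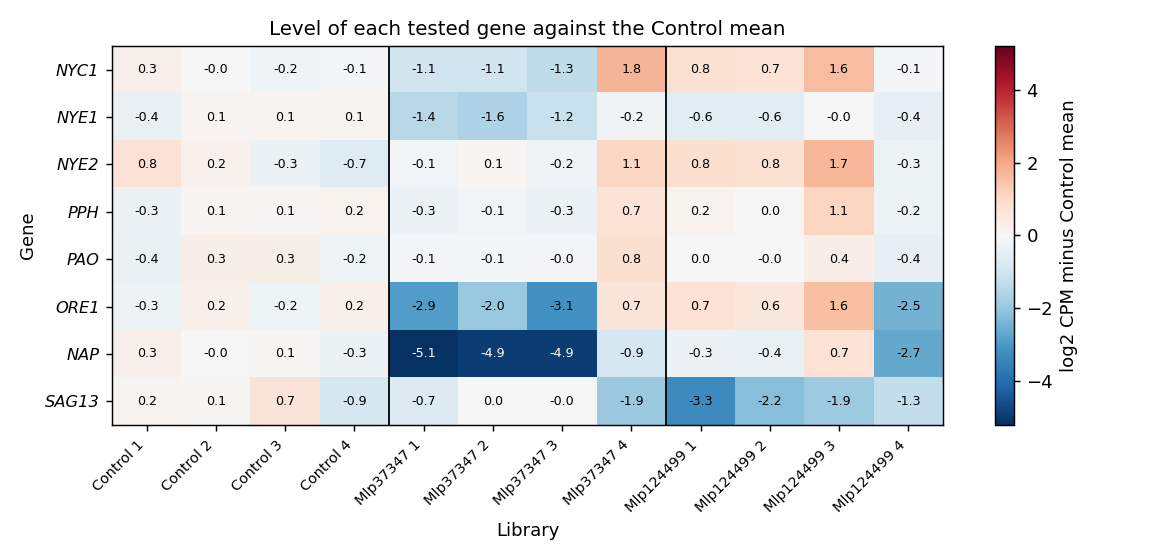
Level of each tested gene in each library as log2 CPM minus the Control mean (colour and printed value, rows are genes, columns are libraries). NAP and ORE1 are most negative in Mlp37347 1 to 3, and in Mlp124499 both are negative in library 4 by over 2 units.

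Within each effector line the levels of these genes differed strongly between libraries. The mean log2 difference of ORE1 and NAP from the Control mean was -4.02, -3.45 and -4.03 in Mlp37347 1, 2 and 3, and -0.13 in Mlp37347 4. It was 0.21, 0.11 and 1.15 in Mlp124499 1, 2 and 3, and -2.57 in Mlp124499 4. For the 5 chlorophyll genes the same mean was -0.60, -0.56 and -0.61 in Mlp37347 1, 2 and 3 and 0.84 in Mlp37347 4. It was 0.24, 0.18, 0.96 and -0.30 in Mlp124499 1 to 4. The chlorophyll genes and the NAC genes were thus highest in the same library of each effector line.

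The spread of NAP within the Mlp37347 line spanned 4.22 on the log2 scale, a range that 0.780% of 18214 genes matched or passed, where the median range of all genes was 0.753. ORE1 spanned 3.79 (1.21% of genes) and NYC1 3.10 (2.46%). Within Mlp124499, ORE1 spanned 4.03 (0.423% of genes) and NAP 3.41 (1.11%), beside a median range of 0.794. Within Control, ORE1 spanned 0.52 and NAP 0.56, less than the median range of 0.673. In both genes the 4 Control libraries were thus closer together than they were for the typical gene.

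Without Mlp37347 4, which stood apart from its line over all genes, the comparison of Mlp37347 with Control changed. NAP fell by 5.01 ± 0.65 on the log2 scale (adjusted p = 0.000462), ORE1 fell by 2.58 ± 0.68 (adjusted p = 0.0190), NYE1 fell by 1.38 ± 0.20 (adjusted p = 0.000956) and NYC1 fell by 1.11 ± 0.31 (adjusted p = 0.0253, all edgeR, n = 3 against 4). These were 4 of 8 genes, where 22.7% of all genes were called and 11.1% were called lower. The remaining libraries, Mlp37347 1 to 3, are those with the long mate inner distance and the near-identical profiles, so the line and these features cannot be told apart in them. Mlp37347 4 had an inner distance of 70 bp. With it as the only library of its line, 0 genes of the list passed edgeR's adjusted threshold, where 2.84% of all genes did. Of the 9 that could then be tested, 3 had an unadjusted p under 0.05, for which the share of all genes was not computed. With 1 library in the line, neither count is read as a result on these genes. The log2 fold change was then -0.90 for NAP (adjusted p = 0.578), -0.18 for NYE1 (adjusted p = 0.769), 0.65 for ORE1 (adjusted p = 0.698) and 1.78 for NYC1 (adjusted p = 0.0647), with the spread taken from the other groups.

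Without the libraries numbered 4 of both effector lines, the Mlp124499 comparison gained calls. NYC1 rose by 1.13 ± 0.22 (adjusted p = 0.00362), NYE2 rose by 1.22 ± 0.37 (adjusted p = 0.0387) and ORE1 rose by 1.06 ± 0.30 (adjusted p = 0.0276) on the log2 scale, while SAG13 fell by 2.43 ± 0.42 (adjusted p = 0.00192, edgeR, n = 3 against 4). These were 3 of 8 genes higher and 1 lower, where 8.99% and 10.5% of all genes were called. NAP, at 0.14 ± 0.25 (adjusted p = 0.770), was not among them. Without Mlp124499 4 alone, SAG13 was the only one of the 8 past the threshold, where 9.73% of all genes were called.

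**Figure D3:**
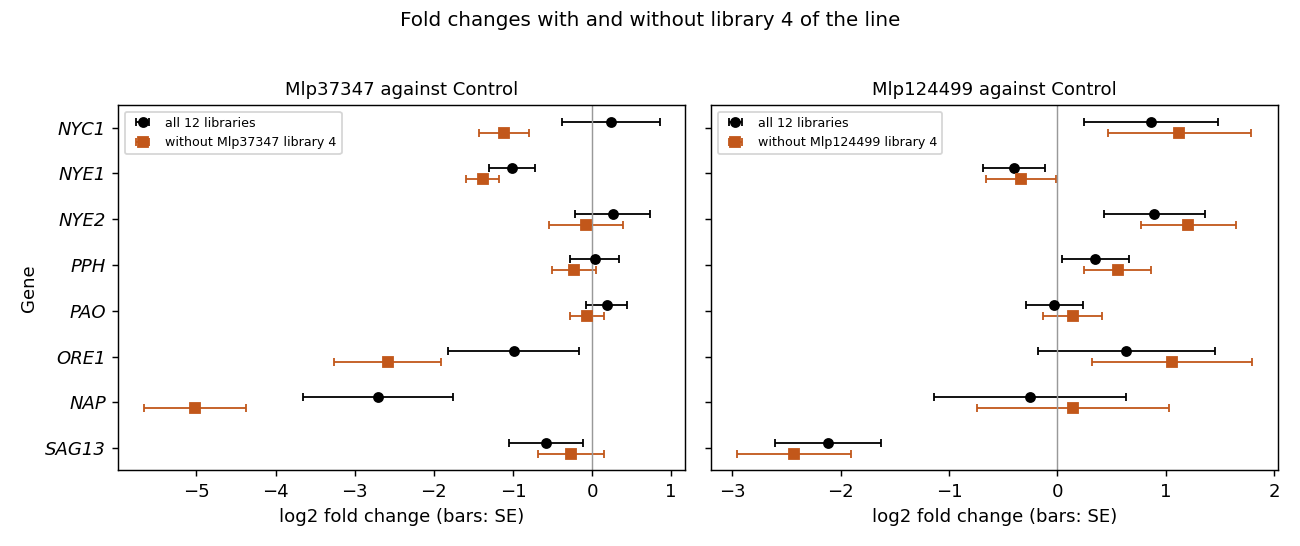
Log2 fold change against Control (horizontal axes, bars are SE) of the 8 tested genes, with all 12 libraries (circles) and without the library numbered 4 of the line compared (squares). In the left panel NAP moves from -2.71 to -5.01 and NYC1 from 0.24 to -1.11, and in the right panel SAG13 is negative in both fits.

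The lines were also compared with each other. This contrast takes its means from the 2 lines, while the filter, scaling and spread came from all 12 libraries, Control included. With only the 2 lines fitted, 0.843% of all genes were called, against 2.69% in the main fit. With all libraries the log2 difference of Mlp37347 from Mlp124499 was -2.46 ± 0.94 for NAP (adjusted p = 0.194), -1.63 ± 0.84 for ORE1 (adjusted p = 0.342), -0.63 ± 0.62 for NYC1 (adjusted p = 0.658) and -0.61 ± 0.29 for NYE1 (adjusted p = 0.298, edgeR). A missed threshold does not show that the lines were alike. Without Mlp37347 4, NAP at -4.81 (adjusted p = 0.000679), ORE1 at -3.27 (adjusted p = 0.00922), NYC1 at -2.03 (adjusted p = 0.00190) and NYE1 at -1.03 (adjusted p = 0.00604) were lower in Mlp37347, and SAG13 at 1.80 (adjusted p = 0.0156) was higher. In that fit 14.5% of all genes were called, 7.2% lower and 7.26% higher.

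The genes nearest to each member were found by the root mean square difference of log2 CPM over the 12 libraries, after centring each gene. They are a description, because the libraries share lines and depth. Nearest to NAP were UPB1 (0.554) and CYP96A5 (0.592), and nearest to ORE1 were AT1G10140 (0.421) and the ethylene receptor gene ERS2 (0.486). NAP and ORE1 differed by 0.987, and 23 of 18214 genes (0.126%) were nearer to NAP than ORE1 was. NYC1 was nearest to AT3G62650 (0.268) and the trehalase gene TRE1 (0.296). NYE1 was nearest to GSTU16 (0.194) and RMA2 (0.204), and NYE2 to AT3G30380 (0.216) and AGL20 (0.246), the flowering regulator SOC1. PPH was nearest to BGLU25 (0.172) and AT1G17160 (0.184), and PAO to DSK2 (0.137) and AMSH1 (0.138). PAO and PPH, which act one after the other, differed by 0.292, with 5.93% of genes nearer to PAO than PPH was. That was the smallest distance of any pair of tested members. NYE2 and PPH differed by 0.493, with 3.97% of genes nearer to NYE2. NYC1 differed from NYE2 by 0.592 and from PPH by 0.653, with 1.55% and 3.11% of genes nearer to NYC1. Each share counts genes around the gene named, so shares around different genes are not compared. SAG13 was nearest to the lipoxygenase gene LOX4 (0.380) and the metacaspase gene MC2 (0.434), and 95.5% to 98.5% of genes were nearer to each other member than SAG13 was.

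Of 13 other genes of chlorophyll breakdown, all tested, 2 rose and 2 fell in Mlp37347, 0 rose and 1 fell in Mlp124499, and 0 were called between the lines by edgeR. Of all genes, 3.19% rose and 5.42% fell in Mlp37347, 1.56% rose and 2.71% fell in Mlp124499, and 2.69% were called between the lines. Between the lines 4 had an unadjusted p under 0.05, for which the share of all genes was not computed. DESeq2 called 3 between the lines and limma voom 10, where they called 7.18% and 54.3% of all genes. PES1 and PES2 esterify phytol freed from chlorophyll. PES2 stood at 18.3 ± 7.71 CPM in Control, 7.24 ± 1.05 in Mlp37347 and 7.26 ± 1.12 in Mlp124499 (SD, n = 4), and fell by 1.34 ± 0.28 on the log2 scale in both lines (adjusted p = 0.0130 and 0.0201, edgeR). PES1 stood at 6.81 ± 1.06 CPM in Control and 14.2 ± 3.35 in Mlp37347, and rose by 1.05 ± 0.27 there (adjusted p = 0.0307). The paired genes of phytol ester synthesis therefore moved in opposite directions in Mlp37347, and no library of that line overlapped Control for either. NOL, the partner of NYC1 in chlorophyll b reduction, rose by 0.53 ± 0.14 in Mlp37347 (adjusted p = 0.0318), from 22.3 ± 0.864 to 32.3 ± 3.65 CPM. CLH1, a chlorophyllase, fell by 1.68 ± 0.44 in Mlp37347 (adjusted p = 0.0342), from 86.4 ± 12.7 to 26.9 ± 6.52 CPM. In Mlp124499 1 to 4, CLH1 stood at 31.8, 28.1, 68.1 and 149 CPM.

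Of 30 senescence regulators, 0 rose and 5 fell in Mlp37347, and 0 rose and 3 fell in Mlp124499, with medians of -0.31 and -0.21 on the log2 scale. Of all genes, 5.42% and 2.71% fell in these comparisons, with medians of 0.01 and -0.01. WRKY70, a negative regulator of senescence that also acts in salicylic acid signalling, stood at 84.5 to 182 CPM in Control, against 12.2 to 35.9 in the Mlp37347 line and 33.6 to 57.5 in the Mlp124499 line. It fell by 2.37 ± 0.34 in Mlp37347 (adjusted p = 0.00186) and by 1.53 ± 0.33 in Mlp124499 (adjusted p = 0.0218, edgeR). WRKY53, a positive regulator, fell by 1.86 ± 0.30 and 1.18 ± 0.29 (adjusted p = 0.00327 and 0.0379), from 32.8 ± 10.4 CPM to 9.04 ± 3.53 and 14.5 ± 1.72. Regulators of opposite sign thus fell together. JUB1, a NAC factor that delays senescence, fell by 1.72 ± 0.39 in Mlp37347 (adjusted p = 0.0193), and its 4.01 ± 1.89 CPM in Control included 1.52 CPM in Control 4, within the range of Mlp37347. WRKY6 fell by 1.24 ± 0.25 in Mlp124499 (adjusted p = 0.0172). In Mlp37347, WRKY6 stood at 18.1, 20.7, 17.5 and 36.7 CPM, with library 4 again the highest. WRKY75 and EEL were the other 2 regulators that fell in Mlp37347.

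**Figure D4:**
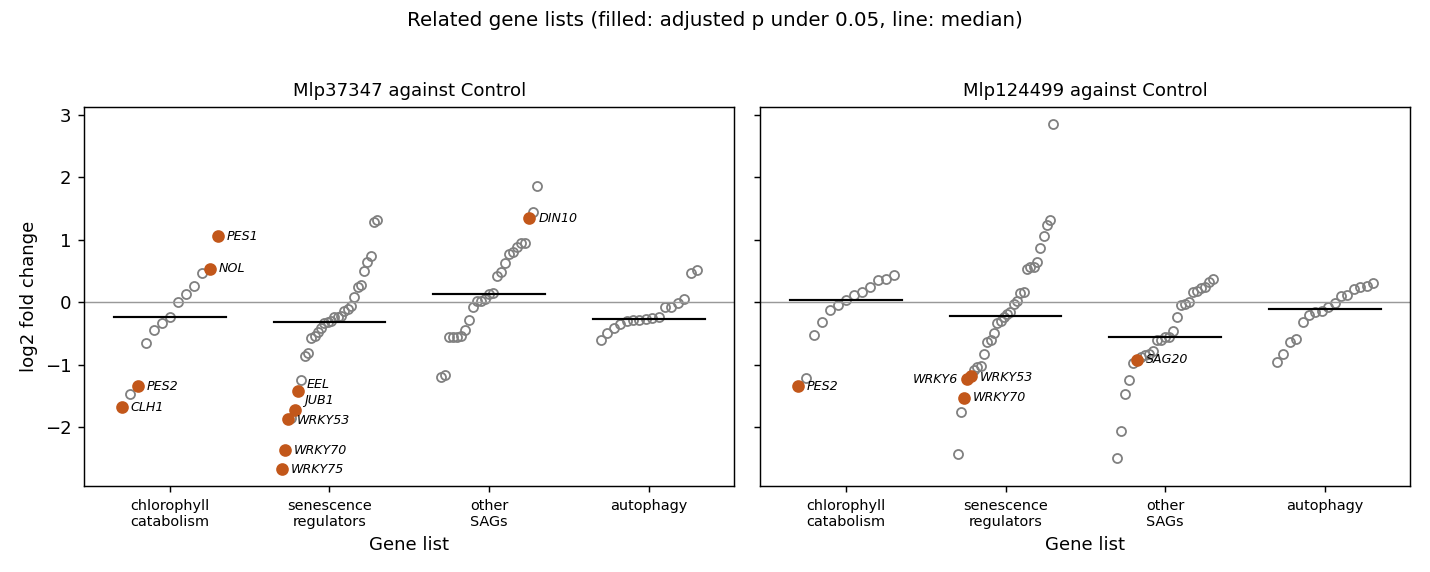
Log2 fold change against Control (vertical axis) of the 84 genes of 4 related lists, in Mlp37347 (left) and Mlp124499 (right). Each circle is a gene, filled circles have adjusted p under 0.05 and black lines are list medians. Of the filled genes in the regulator list, 5 in the left and 3 in the right panel are all below 0.

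Of 25 other senescence-associated genes, 1 rose and 0 fell in Mlp37347, 0 rose and 1 fell in Mlp124499, and 2 were higher in Mlp37347 than in Mlp124499. The medians were 0.13 and -0.55 on the log2 scale against Control. Of all genes, 3.19% rose in Mlp37347, 2.71% fell in Mlp124499 and 1.1% were higher in Mlp37347 than in Mlp124499. DIN10, a dark-inducible gene related to raffinose synthases, stood at 1003 ± 141 CPM in Control, 2542 ± 1341 in Mlp37347 and 547 ± 207 in Mlp124499. It rose by 1.34 ± 0.36 in Mlp37347 (adjusted p = 0.0380). DIN10 differed between the lines by 2.22 ± 0.37 (adjusted p = 0.00921, edgeR), and no library of the lines overlapped. SAG20, related to a wound-induced protein, stood at 131 ± 29.0 CPM in Control, 145 ± 11.7 in Mlp37347 and 69.0 ± 6.82 in Mlp124499. It fell by 0.92 ± 0.19 in Mlp124499 (adjusted p = 0.0164) and differed between the lines by 1.07 ± 0.19 (adjusted p = 0.0108). Of 16 autophagy genes, whose products deliver cell contents to the vacuole, 0 were called by edgeR in any of the 3 comparisons, and their medians were -0.26 and -0.11 against Control. At an unadjusted p under 0.05 each comparison held 3 of the 16, where the share of all genes was not computed. DESeq2 called 0 in each effector comparison and 1 between the lines, and limma voom with sample weights called 14 in Mlp37347, 7 in Mlp124499 and 13 between the lines. That tool called 57.1%, 36.2% and 54.3% of all genes in the same comparisons, so its counts are not read as a result on autophagy genes.

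Few of the calls among the related genes held when single libraries were left out. WRKY70 and WRKY53 in Mlp37347, and DIN10 and SAG20 between the lines, kept their calls without any single library. Over the 21 other settings, DIN10 and SAG20 were each called between the lines in 19. DIN10 was not called there with only the compared groups (adjusted p = 0.0554) or with the replicate block (adjusted p = 0.0589, both edgeR). In Mlp37347, PES2 lost its call without Mlp37347 3 (adjusted p = 0.0547). Without Control 1, 2 or 3 or Mlp37347 1, 2 or 3, PES1 (0.0595 to 0.0900), CLH1 (0.0694 to 0.106) and NOL (0.0547 to 0.0839, also without Control 4) lost theirs, these values being adjusted p. JUB1 lost its call without Control 3, Mlp37347 1 or Mlp37347 2 (adjusted p 0.0626 to 0.0718). DIN10 lost its call against Control without any Control library, Mlp37347 1 or 2, or Mlp124499 1 (adjusted p 0.0520 to 0.108).

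In Mlp124499, PES2 (adjusted p 0.0607 to 0.0858) and WRKY70 (0.0612 to 0.0945) lost their calls without Control 2 or 3 or Mlp124499 1 or 2. WRKY6 (0.0631 to 0.0843) and SAG20 (0.0583 to 0.0701) lost theirs without Control 3, Mlp124499 1 or Mlp124499 2. WRKY53 lost its call without any library numbered 1, 2 or 3 (adjusted p 0.0579 to 0.146). With Mlp37347 4 as the only library of its line, WRKY70 and DIN10 were still past the threshold in Mlp37347, while PES2 (adjusted p = 0.206), PES1 (0.403), NOL (0.436), CLH1 (0.205), WRKY53 (0.157) and JUB1 (0.132) were not.

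**Figure D5:**
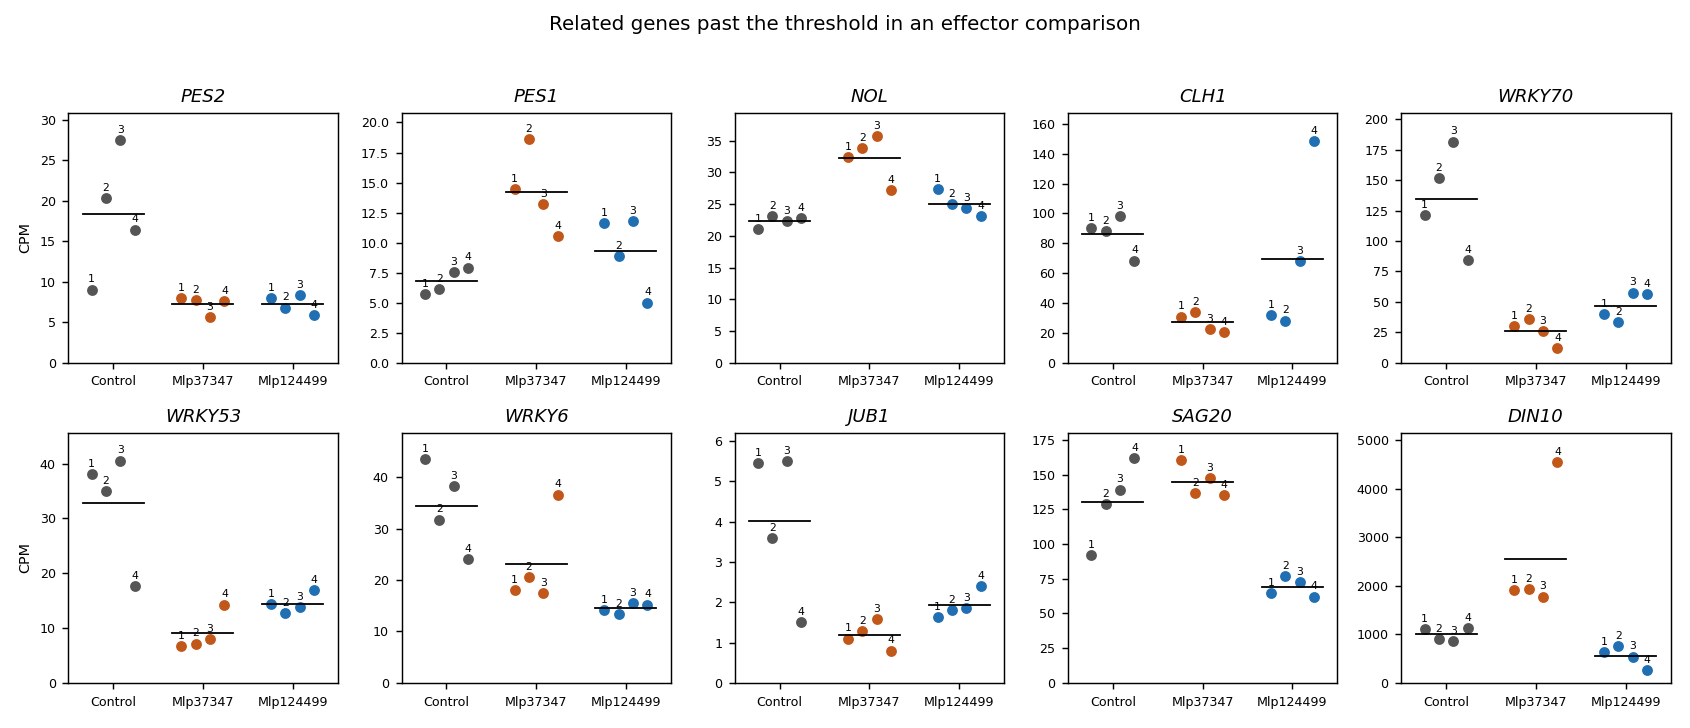
Level in CPM (vertical axes, starting at 0) of the 10 related genes named in the text, by line. Points are libraries with their replicate number and bars are group means. WRKY70 and PES2 lie below all Control libraries in both effector lines, and DIN10 is highest in Mlp37347 4 at 4551 CPM.

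The library pattern of the members was shared in part by these lists. The mean log2 difference of the regulators from the Control mean was -0.98, -0.85, -0.96 and 0.23 in Mlp37347 1 to 4. For autophagy genes it was -0.45, -0.45, -0.46 and 0.52. For the other senescence-associated genes it was -0.71, -0.64, -0.69 and 0.80. In these 3 lists Mlp37347 4 was the highest of its line and above the Control mean. For the 13 other genes of chlorophyll breakdown the values were -0.48, -0.38, -0.55 and -0.30, so that library 4 differed little from the rest and stayed below the Control mean. In Mlp124499 1 to 4 the regulators stood at -0.25, -0.16, 0.20 and -0.85, and library 4 was the lowest there, as it was for ORE1 and NAP. Without Mlp37347 4, 18 of 30 regulators, 5 of 16 autophagy genes and 5 of 13 genes of chlorophyll breakdown fell in Mlp37347 against Control, where 11.1% of all genes were called lower. The library left out was the highest of its line in each of these lists. Those that remain have the near-identical profiles and the long mate inner distance. Rises in that fit, and counts for the other senescence-associated genes, are not given here.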

How the data were processed

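Counts are whole numbers of read pairs per gene locus, deposited by the authors. Reads of 100 nt were trimmed with Trimmomatic, aligned to TAIR10 with TopHat2 2.0.14, and counted over Ensembl Plants transcripts with GenomicAlignments in union mode under R 3.2.5, per the submitters' processing notes and the series' design text. The use of strand in counting and the treatment of reads with several alignments are not stated there. A second deposited table gives reads before trimming, surviving and aligned, and the mate inner distance in bp, per its file header.

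The 12 count columns were joined into 1 table of 32833 loci, of which 99.1% matched TAIR10.1 locus tags (RefSeq). That annotation gave names, exon lengths, positions and the sequences. TMM scaling and all main fits used edgeR 4.0.16 (R 4.3.3). The filterByExpr function kept 19090 genes. A single quasi-likelihood model over the 12 libraries had 1 coefficient for each of the 3 groups and no covariate, so the groups share 1 estimate of the spread. Benjamini-Hochberg adjustment ran over every gene tested, and 0.05 was the threshold. Unless another tool is named, an adjusted p in the text comes from this edgeR test. The SE of a log2 fold change is its size over the root of F. Levels are TMM-scaled CPM, counts relative to library size, and log2 CPM used a prior count of 2. Replicates were those numbered in the labels. The fit was checked on simulated counts drawn independently for each library. Those hold no near-identical or distant libraries such as are seen here, so the check does not cover them.

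The members and the related lists were chosen with earlier results of these data known. Named were all members and, of each related list, up to 4 genes past the threshold with the smallest adjusted p over both effector comparisons. For each tested member the 2 nearest genes of at least 1 CPM on average were also named. Other settings were RLE and total count scaling, no filter, DESeq2 1.42.0, limma 3.58.1 voom with sample weights, a replicate block, only the groups compared, each library left out, both effector libraries numbered 4 left out, and the 3 libraries with a long mate inner distance left out.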

Additional observations from a re-analysis of the deposited data

Results flagged for a closer look

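The CPM values of each named gene in each group formed a set of 4. A library far from the other 3 was found in 15 of the 60 sets. A chance rate of about 1 in 20 holds for independent sets. These sets share the same libraries, so their count was not compared with that rate. Of the 15, 9 were Mlp37347 4, always the highest of its line. Its values were 4.35 CPM for NYE2, 110 CPM for PPH, 156 CPM for PAO, 411 CPM for NYC1, 46.6 CPM for ORE1 and 65.2 CPM for NAP. Among the related genes they were 14.3 CPM for WRKY53, 36.7 CPM for WRKY6 and 4551 CPM for DIN10. Mlp37347 4 had a mate inner distance of 70 bp, against 110 to 115 bp in the other libraries of its line, and the part of this in the values was not tested.

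SAG12 stood far from the other libraries at 3.21 CPM in Control 4 and at 0.931 CPM in Mlp37347 1, and its 0.0820 CPM in Mlp124499 2 was a single count. The other libraries of both effector lines held no counts of SAG12, so any count there would have been flagged. SAG29 stood at 6.92 CPM in Mlp37347 2. NYE1 at 23.8 CPM in Control 1, the library with 57.6% of surviving reads aligned, lay below the rest of Control, and PES2 at 5.68 CPM in Mlp37347 3 lay below the rest of its line.

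The Mlp37347 and Mlp124499 lines differed in SAG20, by 1.07 on the log2 scale (adjusted p = 0.0108, edgeR), and in DIN10, by 2.22 (adjusted p = 0.00921, edgeR), both higher in 4 of 4 Mlp37347 libraries than in any Mlp124499 library. Each of these calls held in 19 of the 21 other settings.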

How the results depend on the processing

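With all libraries, the members held 0 higher and 1 lower call in Mlp37347 and in Mlp124499 against Control and 0 between the lines, and the 84 related genes held 3 higher and 7 lower, 0 and 5, and 2 and 0. In Mlp37347, 5.05% of all genes were lower with RLE scaling, 3.36% without a filter and 5.8% with only the compared groups. The lower members numbered 0 in each of these fits. They numbered 2 with total count scaling or DESeq2, 6 with limma voom and 4 without both effector libraries numbered 4, where 9.95%, 7.73%, 29.5% and 15.9% of all genes were lower past the threshold in these 4 fits. Related genes higher in Mlp37347 numbered 0 with total count scaling (1.84% of all genes), 5 with DESeq2 (6.91%) and 5 with only the compared groups (3.52%). They numbered 11 with voom (27.6%) and 9 without both libraries numbered 4 (16.5%). Related genes lower in Mlp37347 numbered 12 with total count scaling (9.95%), 57 with voom (29.5%) and 41 without both libraries numbered 4 (15.9%). In Mlp124499 voom gave 2 members higher and 2 lower (16.1% and 20.1% of all genes), and the fit without both libraries numbered 4 gave 3 higher (8.99%). Related genes higher in Mlp124499 numbered 2 with DESeq2 (3.33% of all genes), 11 with voom (16.1%) and 12 without both libraries numbered 4 (8.99%). Those lower numbered 10 (4.51%), 33 (20.1%) and 20 (10.5%) in the same order, and 8 with only the compared groups (2.54%). Between the lines, DESeq2, voom and the fit without both libraries numbered 4 each gave 1 member higher, where 7.18%, 54.3% and 25.9% of all genes were called in either direction. The latter pair each gave 6 lower, where 27.0% and 12.9% of all genes were lower. Related genes higher between the lines numbered 8 with DESeq2, 19 with voom, 1 with only the compared groups, and 10 both without the libraries numbered 4 and without the long-distance libraries. Those lower numbered 2 with DESeq2 (3.65%), 42 with voom (27.0%) and 32 without both libraries numbered 4 (12.9%). The voom fit called 57.1%, 36.2% and 54.3% of all genes in the 3 comparisons. The cause of these changes was not tested.

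Leaving out single libraries gave 0 to 4 members lower in Mlp37347, 0 to 1 lower in Mlp124499, and 0 to 1 higher and 0 to 4 lower between the lines. Related genes ranged over 0 to 5 higher and 3 to 34 lower in Mlp37347, 0 to 3 and 0 to 11 in Mlp124499, and 2 to 6 and 0 to 23 between the lines. Over the same fits, 1.15% to 11.6% of all genes were called higher and 2.08% to 11.1% lower in Mlp37347. These shares were 0.461% to 4.11% and 0.765% to 5.62% in Mlp124499, and 0.321% to 7.26% and 0.45% to 7.2% between the lines. Log2 fold changes that crossed 0 in these fits ranged, in Mlp37347, over -0.074 to 0.56 (NYE2), -0.23 to 0.18 (PPH), -0.061 to 0.32 (PAO) and -1.11 to 0.57 (NYC1). In Mlp124499 they ranged over -0.02 to 0.56 (PPH), -0.17 to 0.14 (PAO) and -0.81 to 0.14 (NAP), and between the lines over -0.63 to 0.057 (PPH) and -0.082 to 0.36 (PAO).

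Other settings reversed log2 fold changes that had not been called. In Mlp37347, total count scaling gave -0.19 (PPH), -0.042 (PAO), -0.083 (NYC1) and -0.038 (SAG20). Voom gave -0.013 (NYE2), -0.33 (PPH), -0.28 (PAO) and -1.08 (NYC1). Without both libraries numbered 4 the values were -0.064 (NYE2), -0.23 (PPH), -0.063 (PAO) and -1.11 (NYC1). Without the long-distance libraries they were 0.65 (ORE1) and 0.12 (WRKY6). In Mlp124499 without both libraries numbered 4, PAO was at 0.14 and NAP at 0.14. Between the lines PAO was at -0.054 with voom and -0.20 without both libraries numbered 4, and without the long-distance libraries NYE1, NYE2, PPH and NYC1 were at 0.20, 0.16, 0.33 and 0.89.

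The replicate block gave 0 members lower in either effector comparison, 0 related genes higher and 2 lower in Mlp37347, 0 lower in Mlp124499 and 0 higher between the lines, and NYC1 at -0.23 in Mlp37347. With that block, 1.24% of all genes were called higher and 2.96% lower in Mlp37347, 1.18% lower in Mlp124499 and 0.278% higher between the lines. Libraries of the same number did not deviate together (correlations of -0.386 to 0.09), and no library correlated best with its own number, so the numbers are taken as names only. The highest correlation between libraries of different groups was 0.553, for Control 1 and Mlp124499 3. Low counts kept SAG12 and SAG29 out of the filtered fit of all libraries, and they were tested only under other settings.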
